A study of Homo sapiens with 2 samples.

Results

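The 10 genes described here encode receptor tyrosine kinases that have been reported as bypass routes around EGFR inhibition, with 2 of their ligands. They are MET with its ligand HGF, the MET relative MST1R (also called RON), the fibroblast growth factor receptors FGFR1, FGFR2, FGFR3 and FGFR4 with the ligand FGF2, the collagen receptor DDR1 and the pseudokinase PTK7. They were taken by exact symbol from the transcript tables, which hold 30843 symbols, and all 10 were found, on 116 of 65535 listed transcripts. RNA-seq of human lung cancer cells was used, with 1 library of PC9, a lung adenocarcinoma line with an activating EGFR deletion that is sensitive to EGFR inhibitors, and 1 library of MTAC-P, a line derived from PC9 that resists them. Both were grown in DMEM with serum and passaged every other day, and the labels record no inhibitor in the culture. The series describes sequencing in triplicate, while 1 column of values is at hand for either line, and whether it pools several cultures is not stated. Nor do the labels say whether MTAC-P is 1 clone or how it was selected.

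A receptor tyrosine kinase binds its ligand outside the cell, pairs with a second receptor and phosphorylates itself and adaptor proteins that feed the RAS-ERK and PI3K pathways. When EGFR is blocked, another receptor that feeds the same pathways can keep them active. Extra copies of MET, HGF from neighbouring cells and signalling through FGFRs have been described in lung cancers treated with EGFR inhibitors. DDR1 answers to collagen in place of a soluble growth factor, and PTK7, whose kinase domain is inactive, works with WNT receptors in planar cell polarity.

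The tables do not name their unit; levels are taken as FPKM, a fragment count divided by transcript length and library total, so genes can be set beside each other per length. The log2 ratio is log2((MTAC-P + 1)/(PC9 + 1)), and the pseudocount of 1 understates differences of low genes. Where values come in pairs, PC9 is first, and positions given for a gene are its span on GRCh38 in GENCODE release 29. With 1 library per line there is no replicate check, no error and no p-value for any value below, so no order of levels can be set against a spread. The depth is unknown because the tables hold no counts. The listed values came to 693444 in PC9 cells and 685082 in MTAC-P cells. The epithelial keratin KRT18 stood at 2329 and 2720 FPKM, KRT19 at 549 and 429.9, KRT7 at 430.1 and 409 and EPCAM at 161 and 156, while the lung lineage factor NKX2-1 was at 0.0787 in PC9 cells and listed at 0 in MTAC-P. Markers of fibroblasts and endothelium came to 5.89 FPKM in PC9 cells and 7.15 in MTAC-P cells over 9 genes, with CDH5 and COL1A1 above 1 FPKM, and markers of leukocytes to 24.1 and 29.8 over 7 genes, nearly all from CD68. In RNA from whole cultures, fewer cells that express a gene and less RNA per cell cannot be told apart.

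Of the 10 genes, 6 reached a mean of 1 FPKM and were compared, and none of these 6 was at least 2-fold higher or lower, where 7.77% of all 11435 symbols compared were. With 6 genes, a count of 0 is near that share and is no result about them. DDR1 passed 2-fold when its annotated transcripts alone were summed (-1.40), but not over the annotated models with both ends (-0.85). The median log2 ratio of the 6 genes, each summed over all its listed transcripts, was -0.27, beside -0.02 over all symbols compared. MET was the 1 gene of the 6 above 0, where 5440 of all 11435 symbols compared were. Of the 26 transcripts of these genes with a mean of 1 FPKM, 9 were at least 2-fold higher (3) or lower (6), or 34.6%, beside 16.6% of all 19406 transcripts compared (7.76% higher and 8.88% lower). All 9 belong to DDR1 (6) and PTK7 (3), and in both genes some were higher and others lower. The count depended on the pseudocount, with 14 of 26 (53.8%) at a pseudocount of 0.1, beside 23.0% of all transcripts, and 2 of 26 (7.69%) at 5, beside 5.21%.

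Coding stretches by which transcripts of 5 of the genes differ are shown here because the values further down are given for the forms that hold or lack them. They were read from GENCODE release 29 transcripts on GRCh38, 5′ to 3′ on the strand of the gene. Capitals mark the alternative stretch and lower case the 15 coding bases on each side. In the junction lines, capitals mark the start of exon 11, which follows lower-case bases of exon 9 or exon 7 where exon 10, or exons 8 to 10, are left out.
PTK7 exon 10: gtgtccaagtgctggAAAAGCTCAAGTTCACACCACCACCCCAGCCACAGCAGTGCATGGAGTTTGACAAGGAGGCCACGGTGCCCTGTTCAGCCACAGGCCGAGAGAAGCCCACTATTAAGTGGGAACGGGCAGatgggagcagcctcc
PTK7 exon 9 to exon 11: gtgtccaagtgctggATGGGAGCAGCCTCC
PTK7 exon 7 to exon 11: acatcactgtggccaATGGGAGCAGCCTCC
DDR1 exon 12: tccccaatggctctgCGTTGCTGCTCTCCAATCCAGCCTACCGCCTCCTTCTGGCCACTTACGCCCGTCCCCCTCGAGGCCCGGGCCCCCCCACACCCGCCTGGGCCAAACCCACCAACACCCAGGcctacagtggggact
FGFR3 IIIb exon: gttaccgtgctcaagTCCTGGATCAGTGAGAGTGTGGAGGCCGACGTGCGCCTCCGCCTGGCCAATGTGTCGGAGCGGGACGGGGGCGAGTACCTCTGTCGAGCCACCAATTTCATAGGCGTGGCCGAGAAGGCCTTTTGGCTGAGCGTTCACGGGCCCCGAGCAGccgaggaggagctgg
FGFR3 IIIc exon: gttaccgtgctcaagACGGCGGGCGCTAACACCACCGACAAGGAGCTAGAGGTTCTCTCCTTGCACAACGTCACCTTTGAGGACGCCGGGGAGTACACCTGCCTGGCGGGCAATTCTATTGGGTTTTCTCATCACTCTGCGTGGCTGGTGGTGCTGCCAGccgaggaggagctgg
MET start of exon 10: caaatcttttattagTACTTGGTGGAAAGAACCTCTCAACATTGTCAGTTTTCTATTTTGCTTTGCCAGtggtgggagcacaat
MST1R exon 11: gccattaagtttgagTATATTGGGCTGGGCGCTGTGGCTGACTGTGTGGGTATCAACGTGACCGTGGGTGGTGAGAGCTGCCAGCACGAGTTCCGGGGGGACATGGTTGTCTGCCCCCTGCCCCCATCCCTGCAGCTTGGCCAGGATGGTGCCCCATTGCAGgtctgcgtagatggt
PTK7 exon 10 has 120 bases (chr6:43139406-43139525), the DDR1 exon 111 (chr6:30895404-30895514), the MET stretch 54 (chr7:116759337-116759390) and MST1R exon 11 147 (chr3:49895961-49896107). Each of these 4 lengths is a multiple of 3, so leaving the stretch out keeps the reading frame. The FGFR3 exons, of 151 bases (chr4:1802914-1803064) and 145 bases (chr4:1803692-1803836), stand in for each other. Placed side by side from their first base without gaps, they share 39 of 145 bases (26.9%). Placements with gaps were not tried, so this share does not measure how alike the exons are. GC content ran from 38.9% in the MET stretch to 70.3% in the DDR1 exon.

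Among 58 receptor tyrosine kinase genes (the 8 receptors here and 50 others), DDR1 had the highest value in PC9 and the second highest in MTAC-P, after EGFR, or the 2nd and 9th highest over transcripts in GENCODE 29 only. MET was 4th in both lines, MST1R 5th in PC9 and 7th in MTAC-P, and PTK7 9th in both. FGFR3 was 16th and 19th, FGFR4 22nd and 23rd, FGFR1 28th in both, and FGFR2 35th and 40th. These ranks rest on the listed transcripts only. The part of a gene's coding GENCODE transcripts that was listed differed, with 4 of 6 for MET and 14 of 43 for DDR1. The order of the 10 genes by level was the same in both lines for the top 7, from DDR1 over MET, MST1R, PTK7, FGFR3 and FGFR4 to FGFR1. HGF, FGF2 and FGFR2 lay below 0.04 FPKM in both.

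**Figure D1:**
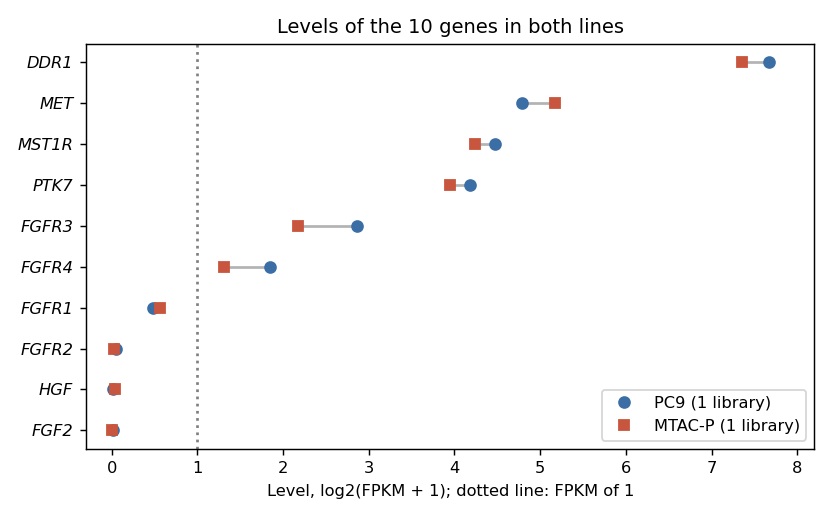
Levels of the 10 genes as log2(FPKM + 1), with a circle for the PC9 library and a square for the MTAC-P library. DDR1 is the highest, 4 genes lie left of the dotted line at 1 FPKM, and MET is the 1 gene above that line with the square to the right.

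MET, the receptor of hepatocyte growth factor (chr7:116672390-116798386), was at 26.7 FPKM in PC9 cells and 35.1 in MTAC-P cells (log2 ratio 0.38). Of all symbols compared, 84.0% had a lower ratio. Most of it came from ENST00000397752, a full-length model of 6635 bases, at 17.7 and 20.6 (0.21). The rest came from ENST00000422097, a model of 688 bases with an open end inside the gene, at 9.004 and 14.5 (0.63). Both transcripts were thus higher in MTAC-P, the short one by more. The form that opens exon 10 with the extra 54 bases shown above, ENST00000318493, stood at 2e-06 and 3e-06 FPKM, and ENST00000436117 was listed at 0 in both. Of 6 coding MET transcripts in GENCODE 4 were listed.

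HGF, the ligand of MET (chr7:81699008-81770438), was at 0.00723 FPKM in PC9 cells and 0.0314 in MTAC-P cells. Of its 5 listed transcripts 3 were at 0 in both libraries. The full-length ENST00000222390 stood at 0.00723 and 0.00749, and ENST00000423064, a short form, was listed at 0 in PC9 and stood at 0.0239 in MTAC-P. MST1, which encodes the ligand of MST1R, was listed at 0 in both. Both receptors were therefore listed at far higher levels than their ligands in each line.

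MST1R (chr3:49887002-49903873) was at 21.2 FPKM in PC9 cells and 17.9 in MTAC-P cells (-0.23). The full-length transcript with exon 11, ENST00000296474, stood at 4.72 and 5.06 (0.08). The coding transcript that lacks exon 11, ENST00000344206, stood at 4.82 and 4.41 (-0.10). RON without this exon is known in epithelial tumours, where the protein tends to stay inside the cell. The full-length transcript with exon 11 and the coding one without it thus had similar values in each line, and neither differed by 2-fold. They held 22.3% and 22.8% of the MST1R value in PC9 and 28.4% and 24.7% in MTAC-P. The other listed transcripts of the gene were not assigned to either form. ENST00000411578, annotated for nonsense-mediated decay, stood at 3.73 and 3.01. A model of 854 bases with open ends, ENST00000434765, was the highest of the gene's listed transcripts in PC9 at 6.83, with 4.87 in MTAC-P (-0.42). Of 7 coding MST1R transcripts in GENCODE 3 were listed, so forms not analysed here could also hold or lack exon 11.

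FGFR3 (chr4:1793293-1808872) was the highest of the FGF receptors, at 6.29 FPKM in PC9 cells and 3.52 in MTAC-P (-0.69), the lowest ratio of the 6 compared genes. Of all symbols compared, 8.64% had a lower ratio. FGFR3 comes in IIIb and IIIc forms, made with alternative exons of the ligand-binding part, and epithelial cells are known for the IIIb form. The transcript with the IIIb exon alone, ENST00000340107, made up 62.4% of the FGFR3 value in PC9 and 57.4% in MTAC-P, at 3.93 and 2.02 FPKM (-0.71). ENST00000260795, which holds both exons and is annotated for nonsense-mediated decay, stood at 0.860 and 0.208. The transcripts with neither exon, ENST00000352904 and ENST00000412135, summed to 1.51 and 1.29 (-0.13). Of 7 coding FGFR3 transcripts in GENCODE 3 were listed. No transcript with the IIIc exon alone was among those listed, so a IIIb to IIIc ratio cannot be given here.

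FGFR4 (chr5:177086886-177098144) was at 2.59 FPKM in PC9 cells and 1.48 in MTAC-P cells (-0.53). Its full-length transcript ENST00000292408 stood at 2.31 and 0.783 (-0.89), and ENST00000393648, in which exons 9 and 10 end early, at 0.140 and 0.697 (0.57). Their shares of the gene's value were 89.1% and 5.40% in PC9 against 52.7% and 46.9% in MTAC-P. The full-length form still led in both lines. With a pseudocount of 0.1 the log2 ratios of these forms were -1.45 and 1.73, past 2-fold, which shows how far the pseudocount weighs on values this low. Of 9 coding FGFR4 transcripts in GENCODE 3 were listed, so the shares leave out forms not analysed here.

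FGFR1 (chromosome 8) was at 0.397 FPKM in PC9 cells and 0.476 in MTAC-P cells (0.08). Of its 12 listed transcripts 4 were at 0 in both. ENST00000397091 stood at 0.211 and 0.153 and ENST00000425967 at 0.129 and 0.292, which together made up most of the value in each line. FGFR2 (chr10:121478334-121598458) stood at 0.0347 and 0.0187, with 10 of 14 listed transcripts at 0 in both. FGF2, a secreted ligand of FGFRs (chr4:122826708-122898236), had 1 of 4 coding transcripts listed, at 0.00726 in PC9 and at 0 in MTAC-P. The 4 receptors together came to 9.32 FPKM in PC9 cells and 5.50 in MTAC-P (-0.67), and FGFR3 made up 67.5% and 64.0% of that.

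DDR1 (chr6:30876421-30900156) was at 203 FPKM in PC9 cells and 163 in MTAC-P cells (-0.31). Its 60 listed transcripts fall into 2 sets with different values. The 45 that are not in the primary-assembly annotation of GENCODE 29 summed to 173 and 153 (-0.18), and 1 of them, ENST00000430486, held 146 and 137 FPKM, or 72.3% and 84.1% of the gene's value. The 15 that are in that annotation summed to 29.6 and 10.6, a log2 ratio of -1.40 that is past 2-fold. Without the models that have an open end, the ratio of the annotated set was -0.85, short of 2-fold. DDR1 lies in the major histocompatibility complex, for which the human reference also carries alternate sequences. Whether the 45 IDs belong to such copies, and how fragments were shared among them, was not tested, and the length and exons of ENST00000430486 are not used here. The value of DDR1 therefore rests mainly on 1 transcript, and its difference between the lines on which transcripts are summed.

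Within the annotated set, the full-length DDR1 transcripts differ by the 111-base exon shown above, whose presence makes the DDR1b form and whose absence makes DDR1a. The 2 transcripts with it came to 6.01 FPKM in PC9 cells and 1.67 in MTAC-P cells (-1.39). The 4 without it summed to 2.62 and 2.65 (0.01), a sum made of opposite differences. ENST00000376569 stood at 1.11 and 0.115 and ENST00000376567 at 0.250 and 0.0149. ENST00000376570 stood at 1.20 and 1.95 and ENST00000418800 at 0.0534 and 0.562. In PC9 the sum with the exon was thus the higher and in MTAC-P the lower of the 2 sums. Of 43 coding DDR1 transcripts in GENCODE 14 were listed, so forms not analysed here could also hold or lack this exon. The full-length forms summed here hold little of the gene: 2.97% and 1.03% of the DDR1 value with the exon, and 1.29% and 1.62% without it. ENST00000376568 carried most of the first sum, at 5.95 and 1.57. With a pseudocount of 5 the ratio of the forms with the exon was -0.72, short of 2-fold. The other annotated transcripts at 2-fold were ENST00000412274, at 2.34 in PC9 and listed at 0 in MTAC-P, and ENST00000424544, at 2.59 and 0.00165, both models with an open end. The highest annotated transcript in both lines, ENST00000437124, is a model of 587 bases with an open end, at 10.8 and 5.03 (-0.97). Outside the annotation, ENST00000413044 stood at 13.2 and 0.615 and ENST00000400488 at 3.33 and 0.695, while ENST00000421229 stood at 0.755 and 3.69.

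**Figure D2:**
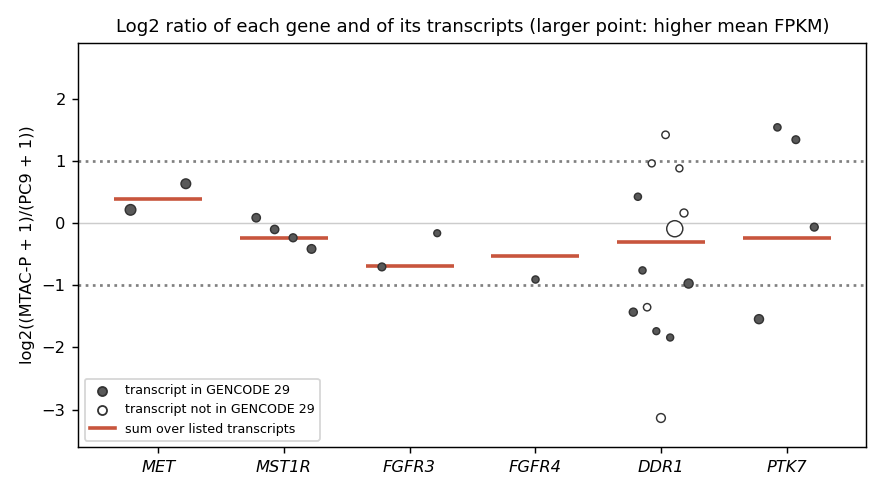
Log2 ratio of MTAC-P to PC9 for the 6 compared genes (red lines) and for each of their 26 transcripts with a mean of at least 1 FPKM (points, larger with a higher mean; open points are not in GENCODE 29). All red lines lie within the dotted 2-fold lines, while points of DDR1 and PTK7 lie beyond them on both sides.

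PTK7 (chr6:43076268-43161719) was at 17.1 FPKM in PC9 cells and 14.4 in MTAC-P cells (-0.24). That small difference was made of larger ones in opposite directions. ENST00000230419, the full-length form of 20 exons, stood at 12.3 and 3.56 (-1.55). ENST00000345201, which lacks exon 10, stood at 0.408 and 3.09 (1.54). ENST00000349241, which lacks exons 8, 9 and 10, stood at 1.10 and 4.32 (1.34). ENST00000352931, which keeps exon 10, ends exon 12 early and lacks exon 13, stood at 3.27 and 3.08 (-0.07). A transcript annotated for nonsense-mediated decay, ENST00000230418, stood at 0.0432 and 0.326.

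Summed by exon 10, PTK7 transcripts with it were at 15.6 FPKM in PC9 cells and 6.97 in MTAC-P cells (-1.06), and those without it at 1.51 and 7.41 (1.74). The forms without exon 10 thus made up 8.79% of PTK7 in PC9 and 51.5% in MTAC-P. With a pseudocount of 5 the ratios were -0.79 and 0.93, the same directions but short of 2-fold. These shares are Cufflinks estimates with no interval, and 4 of 10 coding PTK7 transcripts were listed, so forms not analysed here could also hold or lack this exon.

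**Figure D3:**
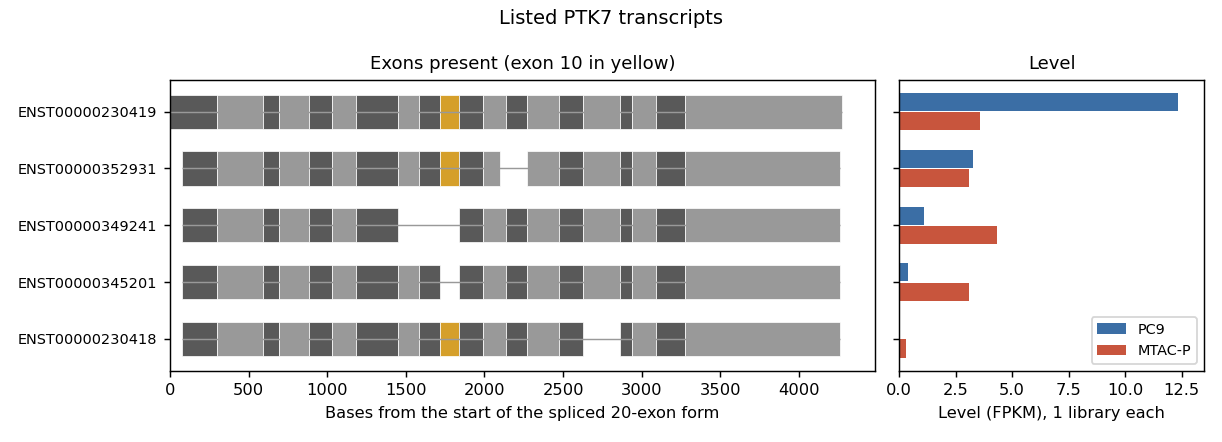
Exons of the 5 listed PTK7 transcripts along the spliced full-length form, drawn to scale with gaps where exons are left out (left), and the FPKM of each in the PC9 and MTAC-P libraries (right). The full-length form is higher in PC9, and the transcripts without exon 10 (exon 10 is yellow in the others) are higher in MTAC-P.

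The shift between transcripts can be given for each gene as the part of its value that moved from some transcripts to others. It was 47.1 percentage points for PTK7, 41.6 for FGFR4, 18.2 for DDR1, 12.8 for FGFR3, 8.04 for MST1R and 7.53 for MET. Over 7369 symbols with at least 2 listed transcripts the median was 10.3, and 93.0% of them had a smaller shift than PTK7 and 90.6% a smaller one than FGFR4. Among those symbols with a mean within 2-fold of the gene's own, 94.7% had a smaller shift than PTK7. The value was 89.4% for DDR1 and 83.1% for FGFR4. Of the 6 compared genes, the leading transcript differed between the lines for PTK7 and MST1R, and did so for 18.5% of all those symbols. In PTK7 it passed from ENST00000230419 to ENST00000349241. In MST1R it passed from the open-ended model to the full-length one, which stood at 6.83 and 4.72 FPKM in PC9 and at 4.87 and 5.06 in MTAC-P.

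**Figure D4:**
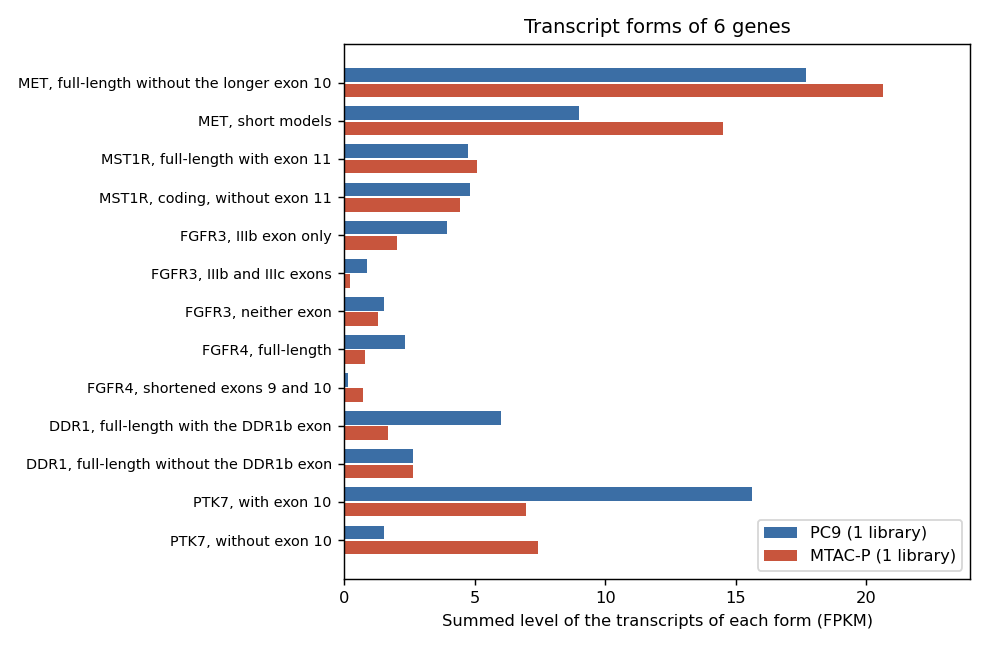
Summed FPKM of the transcripts of each form of 6 genes in the PC9 library and the MTAC-P library, 1 library each. PTK7 without exon 10 is at 1.51 in PC9 and 7.41 in MTAC-P, and DDR1 with the DDR1b exon at 6.01 and 1.67.

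Genes that act with these receptors were taken from 10 lists of pathway genes. Of the 50 other receptor tyrosine kinase genes, 20 were compared, with 1 at least 2-fold higher (AXL, 7.89 and 22.7 FPKM, 1.41) and 1 at least 2-fold lower (EPHB6, an ephrin receptor, 17.4 and 4.37, -1.78). Over all symbols 3.48% were 2-fold higher and 4.29% lower, and 5440 of the 11435 compared lay above 0, which applies to each list below. The median of these 20 was -0.13, or 0.16 over those with a mean of at least 5 FPKM. EGFR, RYK and EPHA2 were the most abundant, and EPHA2, at 19.5 and 33.1, had a ratio of 0.73.

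Of 12 genes for the activation of HGF and MST1 (MST1 itself, activating proteases and their inhibitors), 4 were compared and none was at 2-fold (median 0.02). The activating proteases ST14 (35.1 and 34.6 FPKM) and PLAU (40.8 and 42.4) were abundant in both lines. SPINT1, an inhibitor of such proteases, stood at 20.2 and 30.0 (0.55) and SPINT2, its relative, at 10.2 and 8.71. HGFAC, another activator, was listed at 0 in both.

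Of 25 partners and adaptors of MET and RON, 23 were compared, 16 lay above 0 and 1 was at 2-fold, with a median of 0.12. It was SEMA4D, the ligand of the MET partner plexin-B1, at 12.9 FPKM in PC9 cells and 2.96 in MTAC-P (-1.81). The co-receptor CD44 stood at 309 and 325 and the adaptor SHC1 at 54.0 and 72.1 (0.41). The phosphatase PTPN11 stood at 61.6 and 69.6. GAB1, the docking protein of MET, was low, at 1.93 and 0.795 (-0.71).

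FGF ligands were low in both lines over their listed transcripts. Of 21 other FGF genes, 20 were in the tables, 9 were listed at 0 in both libraries and 1 reached a mean of 1. It was FGF11, which acts inside the cell and is not a ligand of FGFRs, at 11.9 FPKM in PC9 cells and 5.86 in MTAC-P (-0.91). FGF1, a ligand of all FGFRs, stood at 0.171 and 0.808. The co-receptor KL was at 0.0355 in PC9 cells and listed at 0 in MTAC-P, and KLB stood at 0.0698 and 0.127. Of 15 co-receptors, adaptors and binding proteins, 7 were compared and none was at 2-fold (median 0.03). The most abundant were FIBP, an intracellular FGF-binding protein (95.5 and 107 FPKM), and the galectin gene LGALS3 (99.4 and 78.1). FRS2, the adaptor that links FGFRs to RAS, stood at 3.28 and 4.40, and FGFRL1, a receptor without a kinase domain, at 10.7 and 10.997.

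Genes that FGF signalling turns on, many of them shared with EGFR, showed no 2-fold difference. Of 15, 11 were compared, 5 lay above 0 and the median was -0.17, or 0.06 when the most abundant transcript stood for each gene. The ERK phosphatases DUSP4 (54.5 and 43.2 FPKM) and DUSP6 (25.4 and 21.3) were lower by less than 2-fold, and DUSP5 stood at 17.3 and 19.0. The factor ETV4 had a ratio of -0.64 and the inhibitor SPRY1 -0.67.

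Heparan sulphate on the cell surface holds FGFs on their receptors. Of 33 genes for its carriers and enzymes, 17 were compared, none was 2-fold higher and 2 were 2-fold lower, with a median of -0.01. They were the carrier glypican 1, GPC1 (55.0 and 19.0 FPKM, -1.49), and SULF2, which removes sulphate groups from the chains (40.3 and 12.5, -1.62). The syndecan genes went different ways by less than 2-fold, with SDC1 at 80.0 and 52.6 (-0.59) and SDC4 at 62.1 and 86.6 (0.47). The carrier agrin, AGRN, stood at 42.2 and 45.0. EXT1, which builds the chains, stood at 25.9 and 51.4 (0.96).

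Of 17 collagen genes from types that DDR1 can bind, 7 were compared, 5 lay above 0 and 1 was at 2-fold, with a median of 0.41. The median was 0.11 over those with a mean of at least 5 FPKM and 0.05 with no filter on low values. COL8A1 was at 0.0539 FPKM in PC9 cells and 9.12 in MTAC-P cells (3.26). The basement membrane collagens COL4A5 (12.1 and 10.4), COL4A6 (10.2 and 4.86, -0.93) and COL4A2 (5.82 and 8.49, 0.48) were listed in both lines. Of 13 signalling partners of DDR1, 11 were compared and none was at 2-fold (median 0.12). The most abundant were MYH9, a non-muscle myosin heavy chain (134 and 160.05 FPKM), TM4SF1, a membrane protein (82.0 and 59.4), and PTPN11. DDR2, the other collagen receptor of this kind, stood at 0.298 and 0.0896.

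Of 27 genes of planar cell polarity and PTK7 signalling, 19 were compared, with 1 at 2-fold and a median of 0.05. That was WNT5A, a ligand of this pathway (0.167 and 12.2 FPKM, 3.50). VANGL1, a core polarity gene, stood at 53.2 and 45.9, and the pseudokinase receptor RYK at 32.2 and 38.6. ADAM17, a protease that can cut PTK7, stood at 28.4 and 32.3, and MMP14, another, at 0.157 and 0.284. PRICKLE3 had a ratio of -0.95.

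**Figure D5:**
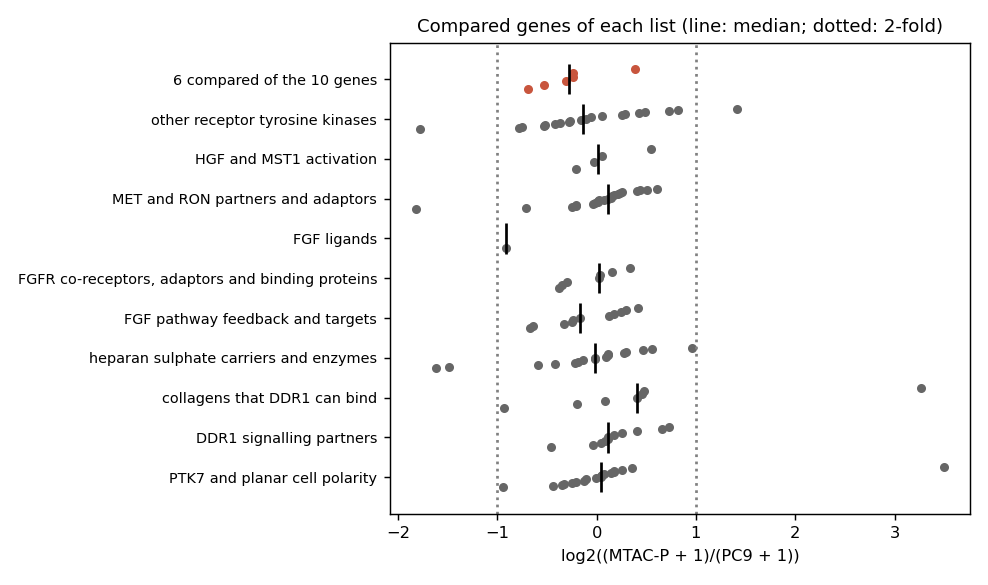
Log2 ratio of MTAC-P to PC9 for the compared genes of each list (points), with the median of each list (black line) and the 2-fold limits (dotted). The 6 compared genes at the top lie within the limits, and COL8A1 and WNT5A are the points beyond 3.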

How the data were processed

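Total RNA was sequenced from 2 cell lines. The submitters' processing notes name Trim Galore, TopHat, Cufflinks and hg38, without versions; read length and strand are not stated. The authors deposited 1 value per Ensembl transcript, taken here as FPKM because Cufflinks reports that unit; the tables do not name it. Each table holds 65535 transcripts, sorted by ID, so later IDs were not analysed here. Cufflinks divides fragments among overlapping transcripts by likelihood, so values of similar transcripts depend on each other. An exact 0 can be a failed estimate.

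Each column was assigned to its line through the sample record. Transcripts with the same symbol were summed, and those symbols or transcripts whose mean over the 2 libraries reached 1 FPKM were compared as log2((MTAC-P + 1)/(PC9 + 1)), with 2-fold as the limit. There are 2 libraries, 1 per line, so no test was made. Transcript models, coordinates and sequences came from GENCODE release 29 (GRCh38, the assembly that hg38 names), which held 84.5% of the listed IDs. Which annotation release the authors used is not stated. Besides the 10 genes, the text names up to 4 genes at 2-fold and the 3 most abundant of each list; other genes named as list members were chosen after their values were seen. The genes and lists were chosen with earlier results of these data known. The calculation of the ratios and 2-fold calls was tested on simulated data. Python 3.11.15, pandas 2.3.3 and numpy 2.4.6 were used.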

Additional observations from a re-analysis of the deposited data

How the results depend on the processing

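The settings varied were the pseudocount (0.1 or 5), scaling to a common sum, centring, the filter (none, or a mean of 5), coding biotypes only, the most abundant transcript only and 1.5-fold. Restriction to GENCODE transcripts, to models with both ends, and the forms under other settings were added after seeing the data. Of 80 log2 ratios of the 10 genes under alternatives, 78 stayed short of 2-fold. DDR1 reached -1.40 with primary-assembly transcripts only, but -0.85 with models that have both ends. PTK7 reached -1.55 with its most abundant transcript only, which leaves out the forms without exon 10. The sign changed for FGF2 with centring (0.01). The count of genes at 2-fold, 0 of 6, became 1 with the most abundant transcript, 1 at 1.5-fold (FGFR3) and 1 with primary-assembly transcripts. The 9 transcripts at 2-fold became 14 with a pseudocount of 0.1, 2 with 5, 2 of 7 at a mean of at least 5, 16 at 1.5-fold and 4 of 13 with both ends only; the filter and the ends setting compare fewer transcripts. The median of FGF ligands, from FGF11 alone, was -1.01 with a pseudocount of 0.1. The other 99 list medians stayed short of 2-fold. No paired analysis was possible because a line is represented by a single library, so none could be left out either. Depth is unknown, so no precision can be given to genes near 1 FPKM or to the division of a gene among its transcripts.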

Other observations

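Other receptor kinase genes also rest on transcripts outside the primary-assembly annotation of GENCODE 29. RYK, at 32.2 and 38.6 FPKM over its listed transcripts, has no listed transcript with a value in that annotation. EPHB6, at 17.4 and 4.37 over all its transcripts, stood at 1.88 and 0.0625 over the annotated ones. With annotated transcripts only, DDR1 passed from 1st to 2nd of the 58 receptor kinase genes in PC9 and from 2nd to 9th in MTAC-P, where MET was then 2nd. These genes were chosen after their values were seen.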
